A study of Mus musculus with 24 samples.

Results

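The cavins and caveolins were examined as one gene family, with 7 members taken by name, the cavins *Cavin1* to *Cavin4* and the caveolins *Cav1* to *Cav3*, out of 22180 genes with a probe set of their own. Each member had 1 probe set annotated to it alone, 7 in all, and no probe set annotated to several genes named a member. *Cavin2* was chosen because its level was higher in *G-Smo* than in *M-Smo* tumors, so its difference between the genotypes is described without a test. The other 6 members entered by family name and not by their values.

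Tumors came from *G-Smo* mice, in which *hGFAP-Cre* switches on the oncogenic *SmoM2* allele in neural stem cells of the whole brain, and from *M-Smo* mice, in which *Math1-Cre* switches on the same allele in committed neural progenitors. All mice were on the C57BL/6 background and carried *SmoM2*, and no group without it is among these arrays. The comparison rests on 6 *G-Smo* and 6 *M-Smo* medulloblastomas harvested untreated at P15, with 1 Affymetrix Mouse Gene 2.1 ST array per tumor. A further 12 arrays came from tumors of both genotypes taken 2 h after 10 Gy of radiation, and 0 of the 7 members had a value there.

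The values are log2 intensities after robust multi-array averaging, RMA, which puts all arrays on a common scale. Differences are *G-Smo* minus *M-Smo*. The array medians lay between 6.38 and 6.42. *Prm1*, which the *hGFAP-Cre* transgene carries, was at 10.09 to 10.54 in *G-Smo* and 5.19 to 5.76 in *M-Smo* tumors, so all 12 arrays matched their labels. Over all 41345 probe sets, limma called 1057 (2.56%) at an adjusted p under 0.05, 525 higher (1.27%) and 532 lower (1.29%) in *G-Smo* tumors, so that 49.7% of the calls were higher. After a further quantile normalization 430 were higher and 658 lower (39.5% higher). The number of calls was unstable. It was 609, 503, 367 and 452 without *G-Smo* tumors 2, 3, 5 and 6, 676 and 596 without *M-Smo* tumors 5 and 6, and 420 once a sex-linked score (Y-linked genes minus *Xist*) entered the fit. The number of arrays limits the precision. Whole tumors were measured, so fewer cells of a type and less RNA per cell cannot be told apart.

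Caveolae are flask-shaped pits of the plasma membrane that are abundant in endothelial cells, pericytes, smooth muscle, fibroblasts and striated muscle. Caveolins sit in the membrane of the pit, and cavins form a coat on its inner face. *Cavin1* is needed for caveolae in general and *Cav1* for those outside striated muscle, *Cav3* and *Cavin4* belong to muscle cells, and *Cavin2* and *Cavin3* join *Cavin1* in coats whose make-up differs between tissues. In brain capillaries caveolae are normally kept scarce, and the lipid transporter *Mfsd2a* takes part in this.

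Of the 7 genes, *Cavin2* alone was chosen for its level, and its difference is the largest among them. It was 2.10-fold higher in *G-Smo* tumors, while *Cavin3*, a fellow cavin, was lower in them by 0.41 on the log2 scale and *Cavin1*, *Cavin4*, *Cav1*, *Cav2* and *Cav3* had differences between -0.08 and 0.11 with overlapping groups. The levels of these genes in every tumor follow, after the start regions of *Cavin2*, *Cavin1* and *Cav1*.

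The start regions are shown because *Cavin2* differed between the genotypes and its main partners in the coat and the membrane, *Cavin1* and *Cav1*, did not pass the test. Each line gives the 250 bases before the first transcribed base, 5′ to 3′ on the gene's strand, from RefSeq on GRCm38.p6. Capitals mark matches to a CCAAT box (CCAAT), a GC box (GGGCGG) or a TATA box (TATAAA) on either strand, and no match overlaps another. *Cavin2* lies on chromosome 1 (plus strand, chr1:51288876-51289125), *Cavin1* on chromosome 11 (minus strand, chr11:100970618-100970867) and *Cav1* on chromosome 6 (plus strand, chr6:17306085-17306334).
*Cavin2*: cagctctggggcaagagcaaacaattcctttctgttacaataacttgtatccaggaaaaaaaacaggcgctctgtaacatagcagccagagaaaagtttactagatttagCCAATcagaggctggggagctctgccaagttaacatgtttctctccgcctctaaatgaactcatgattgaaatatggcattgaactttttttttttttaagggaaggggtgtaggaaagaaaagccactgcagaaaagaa
*Cavin1*: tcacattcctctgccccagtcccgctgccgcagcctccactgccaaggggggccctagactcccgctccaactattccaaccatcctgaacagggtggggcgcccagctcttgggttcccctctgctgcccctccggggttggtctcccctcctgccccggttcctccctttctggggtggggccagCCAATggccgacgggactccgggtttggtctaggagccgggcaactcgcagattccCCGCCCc
*Cav1*: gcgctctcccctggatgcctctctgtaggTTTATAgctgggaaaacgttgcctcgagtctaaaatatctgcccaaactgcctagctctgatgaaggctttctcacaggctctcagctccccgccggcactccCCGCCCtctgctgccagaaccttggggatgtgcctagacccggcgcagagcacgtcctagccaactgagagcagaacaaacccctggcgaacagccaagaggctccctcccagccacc

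The *Cavin2* region had a GC content of 40.4%, against 67.6% for *Cavin1*, 59.6% for *Cav1* and a median of 52.4% over 32851 regions of the same length. Its only match was a CCAAT box starting 140 bases before the start, on the plus strand. The *Cavin1* region held a CCAAT box at 63 bases and a GC box at 7 bases before the start, and the *Cav1* region printed here a TATA box at 221 bases and a GC box at 118 bases, both on the opposite strand. RefSeq gives *Cav1* another start, whose region (chr6:17307390-17307639, GC content 60.8%) held no match to any of these motifs. A CCAAT box occurs in 33.8% of all these regions, a GC box in 32.7% and a TATA box in 12.4%. The letters GACCACCCA, a site of the GLI factors of the hedgehog pathway, occur in 0.225% of them and in none of the 8 regions of member genes. RefSeq start regions were matched for 6 of the 7 members, all but *Cavin3*. These matches are descriptions of the letters, not of binding.

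*Cavin2* encodes a cavin that binds phosphatidylserine and helps to curve the caveolar membrane. Its log2 intensity (probe set 17212719) was 9.38, 9.32, 8.74, 8.54, 8.67 and 8.55 in *G-Smo* tumors 1 to 6, and 7.92, 7.89, 6.99, 8.04, 7.99 and 7.93 in *M-Smo* tumors 1 to 6. All *G-Smo* tumors lay above all *M-Smo* tumors, and the groups were 0.504 apart at their closest, between *G-Smo* 4 and *M-Smo* 4. The means were 8.87 ± 0.38 (SD, n = 6) and 7.79 ± 0.40 (SD, n = 6), a log2 difference of 1.07 (standard error 0.20).

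Neither group was even. *G-Smo* tumors 1 and 2 stood at 9.38 and 9.32, above the other 4 at 8.54 to 8.74, and *M-Smo* tumor 3 stood at 6.99, below the other 5 at 7.89 to 8.04. The difference was 0.91 without *M-Smo* tumor 3, 0.97 without *G-Smo* tumor 1 and 0.98 without *G-Smo* tumor 2. The labels give no sex. The level of *Xist*, which silences an X chromosome in females, exceeded that of Y-linked genes in 5 of 6 *G-Smo* and 2 of 6 *M-Smo* tumors. Where *Xist* was the higher, *Cavin2* was at 8.54 to 9.38 (*G-Smo*) and 7.92 to 7.93 (*M-Smo*), and in the others at 8.55 in the 1 *G-Smo* tumor and at 6.99 to 8.04 in the 4 *M-Smo* tumors. Fitted together with a sex-linked score, the difference was 0.94 (standard error 0.24).

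**Figure D1:**
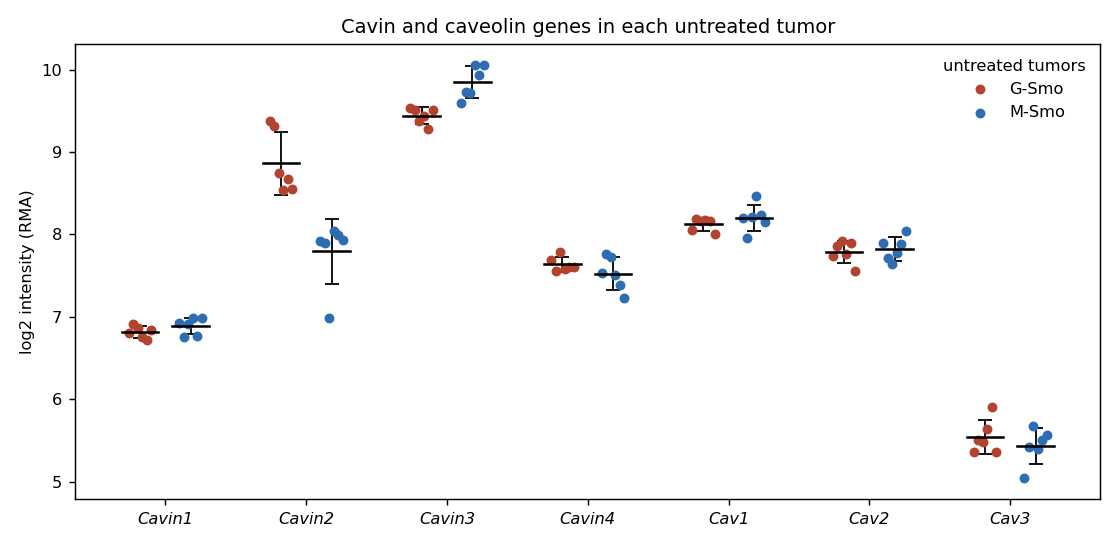
Log2 intensity (RMA, vertical axis) of each cavin and caveolin gene in 6 *G-Smo* (red) and 6 *M-Smo* (blue) untreated tumors. Points are tumors, horizontal bars are means and whiskers are 1 SD. The genotypes are separate for *Cavin2* (*G-Smo* above), which was chosen for its difference, and *Cavin3* (*G-Smo* below), and overlap for the other 5 genes. The share of all probe sets with separate groups was not counted, so separation is a description only.

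*Cavin3* encodes a cavin first described as a binding protein of protein kinase C delta. Its log2 intensity was lowest at 9.28, with a median of 9.47 and a highest value of 9.54, in *G-Smo* tumors, against 9.60, 9.84 and 10.06 in *M-Smo* tumors. All *G-Smo* tumors lay below all *M-Smo* tumors, by 0.054 at their closest. The share of all probe sets with separate groups was not counted, here or for the genes below, so separation is a description only. The means of *Cavin3* were 9.44 ± 0.10 (SD, n = 6) and 9.85 ± 0.195 (SD, n = 6). The difference of -0.41 on the log2 scale had a standard error of 0.0886 and an adjusted p = 0.0338 by limma, so that *Cavin3* was 1.33-fold higher in *M-Smo* tumors. This was the 1 call among the 6 members other than *Cavin2*, where 2.56% of all probe sets were called. It was close to the threshold. Without any 1 of 8 tumors, *G-Smo* 2 to 6 and *M-Smo* 4 to 6, the adjusted p was 0.0562 to 0.0815, and with the sex-linked score it was 0.118 with a difference of -0.38. Over 10 alternative settings the adjusted p ran from 0.0146 to 0.118, and with each of the 12 tumors left out in turn the difference ran from -0.46 to -0.36. In the tumors with high *Xist*, *Cavin3* was at 9.28 to 9.54 (*G-Smo*) and 9.60 to 10.06 (*M-Smo*).

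*Cavin1* encodes the coat protein without which caveolae do not form. Its log2 intensity was 6.72 to 6.91 (median 6.82) in *G-Smo* and 6.75 to 6.98 (median 6.91) in *M-Smo* tumors. The groups overlapped, and the log2 difference of -0.07 (95% interval -0.20 to 0.05, adjusted p = 0.541) did not pass. The upper bound corresponds to a 1.04-fold higher and the lower bound to a 1.15-fold lower level in *G-Smo* tumors.

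The caveolins outside muscle did not pass either. *Cav1*, which encodes the main structural caveolin, was at 8.00 to 8.19 (median 8.16) in *G-Smo* and 7.96 to 8.46 (median 8.20) in *M-Smo* tumors. Its difference was -0.08 (95% interval -0.24 to 0.09, adjusted p = 0.624). *Cav2*, the neighbour of *Cav1* on chromosome 6, encodes a caveolin that joins caveolin-1 in the membrane. It was at 7.55 to 7.92 (median 7.81) in *G-Smo* and 7.64 to 8.04 (median 7.83) in *M-Smo* tumors, a difference of -0.04 (95% interval -0.22 to 0.14, adjusted p = 0.845). With the sex-linked score in the fit, the difference of *Cav2* was -0.16 (adjusted p = 0.304). For both caveolins the *G-Smo* range lay largely within the *M-Smo* range. The tumor lowest in *Cavin2*, *M-Smo* tumor 3, was at 8.21 in *Cav1*, near the middle of its group, and at 7.64 in *Cav2*, the lowest value of its group.

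The muscle members had small positive differences that did not pass. *Cavin4*, a cavin of heart and skeletal muscle, was at 7.55 to 7.79 (median 7.60) in *G-Smo* and 7.23 to 7.76 (median 7.52) in *M-Smo* tumors, a difference of 0.11 (95% interval -0.08 to 0.30, adjusted p = 0.537). *Cav3*, the caveolin of muscle, was at 5.36 to 5.90 (median 5.49) and 5.04 to 5.68 (median 5.46), a difference of 0.11 (95% interval -0.14 to 0.36, adjusted p = 0.663). *Cav3* was the 1 member below the 40th percentile of mean intensity, and no detection call was among the values. Of 10 genes of striated muscle, limma called 0, beside 2.56% of all probe sets. The difference was above 0 for 6 of them, and 4 lay below the 40th percentile. *Myog*, a muscle transcription factor, differed by 0.47 (adjusted p = 0.141) and *Ttn*, the giant sarcomere protein, by 0.54 (adjusted p = 0.235).

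Set beside each other, the log2 difference of *Cavin2* exceeded that of *Cav1* by 1.15, that of *Cavin1* by 1.15, that of *Cav2* by 1.11, that of *Cavin3* by 1.48, that of *Cavin4* by 0.96 and that of *Cav3* by 0.965. Among the 6 other members the median difference was -0.06, with 2 above and 4 below 0, and over all probe sets it was 0.0035. The differences are given as a description, since *Cavin2* was chosen on its own.

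A list of 19 genes linked to caveolae, called accessory genes here, was measured. It mixes proteins of the neck, the diaphragm and the actin link with kinases and receptors that meet caveolins, a repressor of caveolae, and flotillins and stomatin of other membrane domains, so its count is not one of caveolar machinery alone. Limma called 0 of the 19, where 2.56% of all probe sets were called, and their median difference was -0.03. *Flna*, which encodes filamin A and ties caveolae to actin, was higher in every *G-Smo* than in every *M-Smo* tumor, with a difference of 0.22 (standard error 0.057, adjusted p = 0.0597). *Flot1*, which encodes a flotillin of other membrane domains, differed by -0.22 (standard error 0.055, adjusted p = 0.0603). Both lay just outside the threshold, and with the sex-linked score in the fit neither was called. In 5 of 10 other settings both passed, an unmoderated 1-way comparison run here among them (adjusted p = 0.0401 for *Flna* and 0.0378 for *Flot1*). These 5 settings were added for this count after seeing the data. *Plvap*, which encodes the diaphragm protein of endothelial caveolae, differed by -0.26 (95% interval -0.56 to 0.05, adjusted p = 0.348). *Mfsd2a*, the repressor of caveolae at the blood-brain barrier, differed by -0.13 (95% interval -0.30 to 0.04, adjusted p = 0.4). *Nos3*, the endothelial nitric oxide synthase held by caveolin-1, differed by 0.01 (95% interval -0.17 to 0.19, adjusted p = 0.968).

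**Figure D2:**
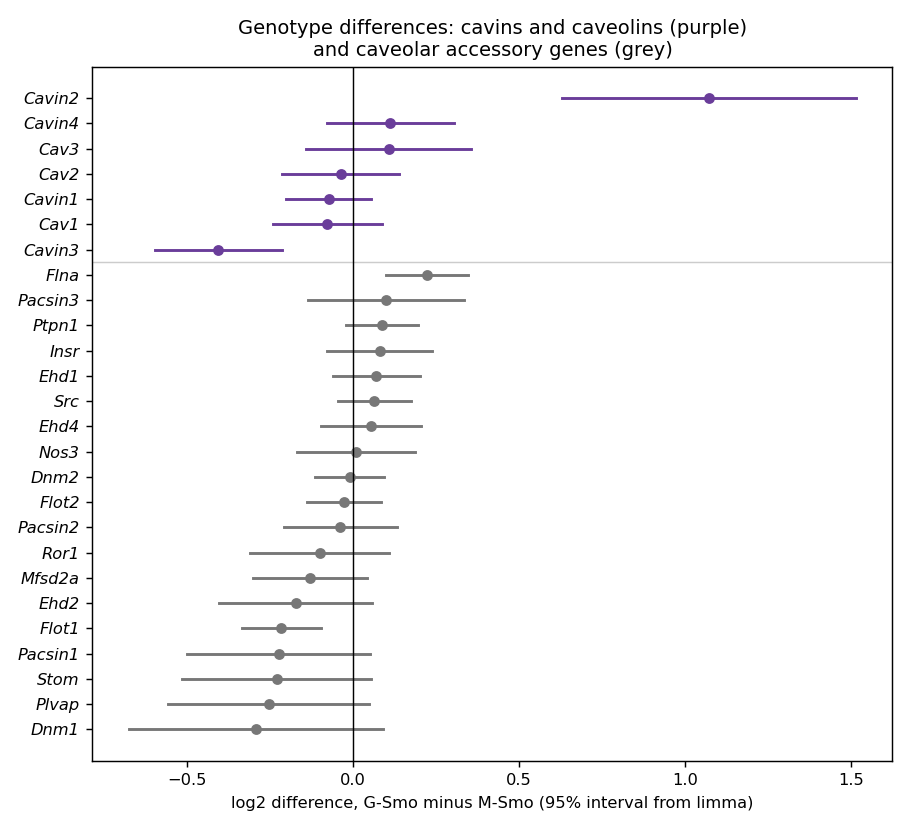
Log2 difference, *G-Smo* minus *M-Smo* (horizontal axis, points) with its 95% interval from limma (lines) for the 7 cavin and caveolin genes (purple) and 19 caveolar accessory genes (grey). *Cavin2* lies at 1.07. It was chosen for its difference, so its interval is a description and not a test. *Cavin3* lies at -0.41, while the accessory genes lie between -0.29 (*Dnm1*) and 0.22 (*Flna*).

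Most markers of endothelial cells, of pericytes and smooth muscle, and of fibroblasts and meninges had differences below 0, the sign of *Cavin3* and not of *Cavin2*. Few were called outside the fibroblast and meninges list. Striated muscle, which also carries caveolae, was near an even split, with 6 of 10 genes above 0 and 0 called. Of 18 endothelial genes 16 had a difference below 0, and 1 was called, *Cdh5*, the cadherin of endothelial junctions, at -0.33 (adjusted p = 0.0137), where 1.29% of all probe sets were called lower. Of the 2 above 0, *Slco1a4* was at 0.36, the largest absolute difference of the list (adjusted p = 0.16 by limma). The mean over the list was 7.86 to 7.97 in *G-Smo* and 7.93 to 8.17 in *M-Smo* tumors. Of 12 pericyte and smooth muscle genes 10 lay below 0, and 1 was called, *Anpep*, a surface peptidase of pericytes, at -0.47 (adjusted p = 0.0137), beside the same 1.29%. This list's mean was 7.85 to 8.09 in *G-Smo* and 8.05 to 8.18 in *M-Smo* tumors.

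Among the endothelial, the pericyte and smooth muscle, and the fibroblast and meninges lists, the last differed most. Of its 12 genes 7 were called, all lower in *G-Smo* tumors, beside 1.29% of all probe sets. Its mean was 7.76 to 8.19 in *G-Smo* and 8.29 to 8.74 in *M-Smo* tumors, with no overlap. The lists were chosen with earlier results of these data known, so their counts and the separation of this mean are descriptions only. *Slc6a13*, a GABA transporter of the meninges, differed by -1.08 (adjusted p = 0.000377), the matrix proteoglycans *Dcn* and *Lum* each by -0.79 (adjusted p = 0.00399 and 0.0121), and the collagen gene *Col1a2* by -0.43 (adjusted p = 0.0203), while a second, dimmer *Col1a2* probe set at -0.34 did not pass (adjusted p = 0.112). All listed markers of the 3 cell types had a probe set, and 1 endothelial and 1 pericyte and smooth muscle gene lay below the 40th percentile. Their part in the values of *Cavin2* and *Cavin3* was not tested. Among 8 genes of the granule lineage that the tumor cells express, limma called 0, beside 2.56% of all probe sets. *Gli1*, a transcription factor of the hedgehog pathway, was at 0.21 (adjusted p = 0.0817) and *Zic2*, a zinc finger factor of granule cell progenitors, at -0.14 (adjusted p = 0.147).

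Whether *Cavin2* moved with its partners from tumor to tumor was asked within each genotype, since *Cavin2* was chosen for its difference between the genotypes. A low *M-Smo* value also raises that difference, so the choice and this variation are not wholly separate. All 21 pairs of members were correlated over 6 tumors in each genotype, 42 correlations in all, with two-sided exact permutation tests over 720 pairings, whose smallest p is 0.00278. After Benjamini-Hochberg adjustment 0 of 42 passed, with 2 in *G-Smo* and 1 in *M-Smo* tumors at an unadjusted p under 0.05. A single pair at that smallest p would have an adjusted p of 0.117 over 42, so no pair could have passed on its own, and the counts of 0 do not show that the genes were unrelated.

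None of the 12 correlations of *Cavin2* with a partner passed even without adjustment. With *Cav1*, Pearson's r was 0.04 in *G-Smo* tumors (exact permutation p = 0.949, Spearman's rho -0.03, p = 1.0) and 0.09 in *M-Smo* tumors (exact permutation p = 0.622, rho 0.60, p = 0.242). Without the 2 tumors farthest from the median of *Cavin2*, the *Cav1* values of r were 0.48 and 0.74. With *Cavin1*, r was 0.43 in *G-Smo* (exact permutation p = 0.367, rho 0.43, p = 0.419) and -0.07 in *M-Smo* tumors (exact permutation p = 0.926, rho 0.43, p = 0.419). Without the 2 farthest tumors the *Cavin1* values were 0.24 and -0.19. All of these had an adjusted p of 0.839 or more.

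With *Cavin3*, whose genotype difference had the opposite sign, r was positive in both genotypes, 0.54 in *G-Smo* (exact permutation p = 0.261, rho 0.54, p = 0.297) and 0.42 in *M-Smo* tumors (exact permutation p = 0.5, rho 0.77, p = 0.103). Without *G-Smo* tumors 1 and 2 the first became -0.66, so it rested on them, and without *M-Smo* tumors 3 and 4 the second was 0.50. With *Cav2*, *Cav3* and *Cavin4*, r ran from -0.38 to 0.22 in *G-Smo* and from -0.52 to 0.60 in *M-Smo* tumors. Without the 2 farthest tumors these ranges became 0.20 to 0.83 and -0.55 to 0.36. The r of *Cavin2* with its partners was above 0 for 5 of 6 partners in *G-Smo* and 3 of 6 in *M-Smo* tumors.

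**Figure D3:**
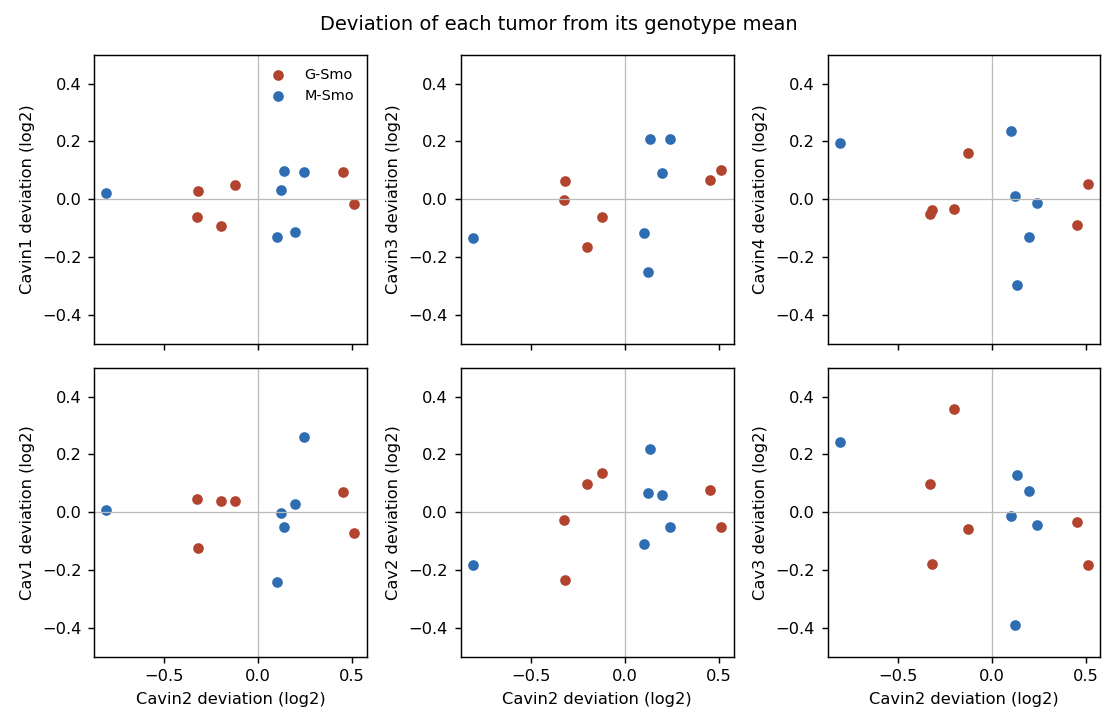
Deviation of each tumor from its genotype mean on the log2 scale, with *Cavin2* on the horizontal axes and 1 partner gene on each vertical axis, for *G-Smo* (red) and *M-Smo* (blue) tumors. The *Cavin2* deviations reach from -0.81 in *M-Smo* tumor 3 to 0.51 in *G-Smo* tumor 1, and 0 of the 12 correlations passed the test.

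Among the partners, *Cav1* and *Cav2* had r = 0.86 in *G-Smo* tumors (exact permutation p = 0.0306, rho 0.49, p = 0.356, adjusted p = 0.447 for r), which fell to -0.22 without *G-Smo* tumors 1 and 6, and 0.01 in *M-Smo* tumors (exact permutation p = 0.989). *Cavin3* and *Cav3* had r = -0.87 in *G-Smo* (exact permutation p = 0.0319, rho -0.71, p = 0.136, adjusted p = 0.447 for r; -0.88 without the 2 farthest tumors), and *Cavin4* and *Cav2* had r = -0.92 in *M-Smo* tumors (exact permutation p = 0.0125, rho -0.77, p = 0.103, adjusted p = 0.447 for r; -0.85 without the 2 farthest tumors).

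The members were also set against the mean of each of the 3 cell type lists, another 42 correlations over 6 tumors, of which 0 passed after adjustment and 3 had an unadjusted p under 0.05 by the exact permutation test. *Cavin1* and the endothelial mean had r = 0.89 in *M-Smo* tumors (exact permutation p = 0.00833, rho 1.0, p = 0.00278, the smallest possible, adjusted p = 0.35 and 0.117), with 0.85 left without the 2 farthest tumors, against -0.55 in *G-Smo* tumors (exact permutation p = 0.254). *Cav1* and *Cav2* each had r = 0.82 with the pericyte and smooth muscle mean in *G-Smo* tumors (exact permutation p = 0.0472 for each, adjusted p = 0.642, rho 0.60, p = 0.242 and 0.77, p = 0.103), which fell to -0.15 and -0.12 without the 2 farthest tumors. *Cavin2* had r = 0.06 in *G-Smo* (exact permutation p = 0.917) and 0.31 in *M-Smo* tumors (exact permutation p = 0.582) with the endothelial mean. With the fibroblast and meninges mean it had 0.35 (exact permutation p = 0.539) and -0.56 (exact permutation p = 0.226), and with the pericyte and smooth muscle mean 0.11 (exact permutation p = 0.835) and -0.61 (exact permutation p = 0.182). Spearman's rho for these 6 pairs was -0.54 to 0.43 (exact permutation p = 0.297 to 1.0), and without the 2 farthest tumors r was 0.53, 0.56 and 0.13 in *G-Smo* and 0.02, -0.26 and -0.88 in *M-Smo* tumors for the endothelial, pericyte and smooth muscle, and fibroblast and meninges means.

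The genes most like *Cavin2* in their variation between tumors were sought outside the family, with the members left out of the candidates. With the genotype means subtracted, Pearson's r over the 12 tumors was highest for *Gca* (0.92), *Bora* (0.92), *Ehd1* (0.92), *Ptges2* (0.91) and *Fibin* (0.91) among 13721 protein-coding probe sets, with Spearman's rho of 0.82 to 0.95. *Gca* encodes the calcium-binding grancalcin, *Bora* an activator of the mitotic kinase Aurora A, *Ehd1* an ATPase of membrane recycling, and *Ptges2* a prostaglandin E synthase. As the 5 highest of many they are a description only, and all points share the same 12 arrays. Without *M-Smo* tumor 3 the 5 values were 0.83 to 0.87. None of the 5 passed the test between genotypes, and their differences were -0.15 to 0.37 (adjusted p = 0.0692 to 0.697).

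The likeness of *Ehd1*, a relative of the neck ATPase gene *Ehd2* and the 1 accessory gene among the 5, held for 1 of its 2 probe sets. Probe set 17548123 had r = 0.92 with *Cavin2*, probe set 17356743 had 0.27, and the pair correlated with each other at 0.38 over the 12 tumors. The family members, set against the same candidates, ranked lower. The r of *Cavin3* with *Cavin2* was 0.44, above 82.9% of them, that of *Cav2* was 0.42 (81.4%), that of *Cavin1* was 0.13 (55.2%) and that of *Cav1* was 0.07 (49.5%). The r of *Cavin4* was -0.33 (17.4%) and that of *Cav3* was -0.46 (10.0%).

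For *Cav1* the 5 most alike genes were *Trmt2b* (0.94), *Ube2j2* (0.93), *Fabp5* (0.89), *Fmo5* (0.88) and *Copa* (0.87), again over 12 tumors with the genotype means subtracted. No gene was among the 5 for both *Cavin2* and *Cav1*. *Fabp5* encodes a fatty acid binding protein, *Trmt2b* a methyltransferase of transfer RNA, *Ube2j2* an enzyme of ubiquitin transfer, and *Copa* a subunit of the coat of Golgi vesicles. Without *M-Smo* tumor 4, which had the highest *Cav1* value at 8.46, their r was 0.78 to 0.90.

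**Figure D4:**
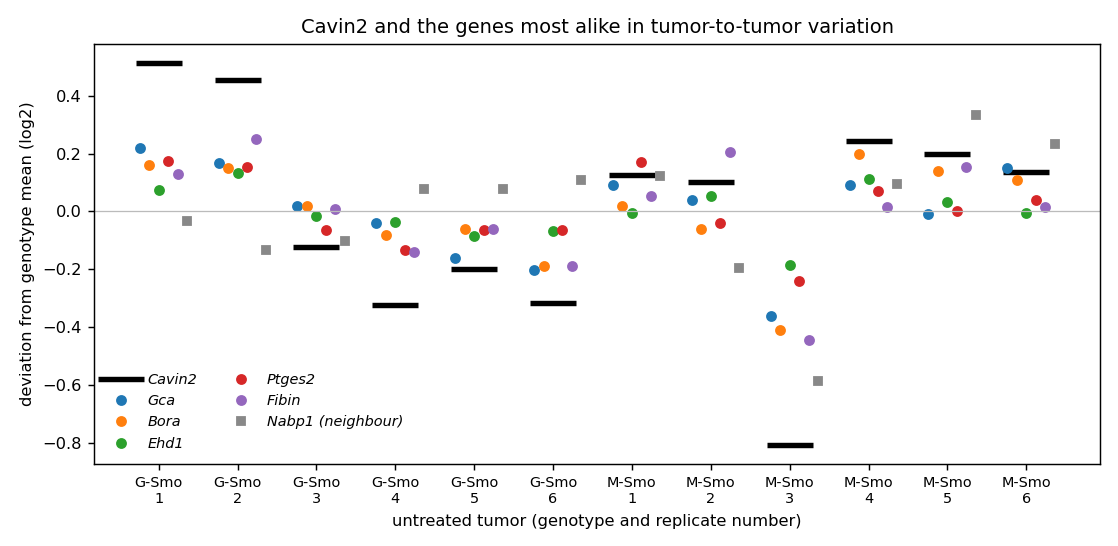
Deviation from the genotype mean (log2, vertical axis) of *Cavin2* (black bars), of the 5 genes most alike to it (colored points, with *Ehd1* as probe set 17548123) and of the neighbouring gene *Nabp1* (grey squares) in each of the 12 untreated tumors (horizontal axis). All 7 are below 0 in *M-Smo* tumor 3, and *Nabp1* is below 0 in *G-Smo* tumors 1 and 2, where the others are above it.

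On chromosome 1 the nearest protein-coding genes with a probe set of their own are *Slc39a10* and *Tmeff2* on one side of *Cavin2* and *Nabp1* and *Stat4* on the other. *Nabp1*, which encodes a single-stranded DNA binding protein, was at 7.80, 7.70, 7.73, 7.91, 7.91 and 7.94 in *G-Smo* tumors 1 to 6 and at 7.63, 7.31, 6.92, 7.60, 7.84 and 7.74 in *M-Smo* tumors 1 to 6. *M-Smo* tumor 3 was the lowest of the 12 for *Cavin2*, for *Nabp1* and, by a small margin, for *Slc39a10* (10.12, with the next at 10.16), but not for *Tmeff2* or *Stat4*. The genotype groups of *Nabp1* overlapped, and its difference of 0.33 (adjusted p = 0.216) did not pass. *Tmeff2*, a transmembrane protein gene, differed by 0.14 (adjusted p = 0.238), *Slc39a10*, a zinc transporter gene, by 0.11 (adjusted p = 0.263), and *Stat4*, which encodes a transcription factor of cytokine signaling, by -0.15 (adjusted p = 0.545).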

How the data were processed

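Whole tumors were profiled on Affymetrix arrays, 1 per tumor. The authors deposited log2 values for each probe set, from RMA in the Partek Genomics Suite per the labels and the methods, and versions are not given in the sources used here. RMA quantile-normalizes the arrays, so a shift of all genes cannot be seen. Values for 41345 probe sets in the 12 untreated arrays were used as deposited, and the 12 irradiated arrays (1019 probe sets, none of a member) were not used.

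Probe sets were named from the platform annotation, which gives 1 symbol to 23521 of them, and older symbols were matched through RefSeq. Where a listed gene had several probe sets, the brightest on average was used. Genotypes were compared with limma 3.58.1 in R 4.3.3 (lmFit, eBayes, two-sided, Benjamini-Hochberg over all probe sets, threshold 0.05), after the methods' 1-way comparison of genotypes. The paper reports far fewer differing probe sets from its own comparison of these tumors, and the cause was not tested. Correlations used exact permutation tests in Python 3.11.15 with numpy 2.4.6 and scipy 1.17.1, and figures matplotlib 3.10.9. The steps were tested on simulated data. The labels do not say that the tumors came from separate mice or litters. The p-values treat the arrays as independent and could be too small if tumors shared a mouse or litter.

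The members and gene lists were chosen with earlier results of these data known. The genes named are all members, up to 4 called genes of each list or else the 2 with the smallest p, *Plvap*, *Mfsd2a* and *Nos3*, the 5 genes most alike to *Cavin2* and to *Cav1* (leaving out the members and probe sets below the 40th percentile), and the nearest 2 neighbours of *Cavin2* on each side. *Prm1*, *Dnm1*, *Ehd2*, *Xist* and *Slco1a4* were added after their values were seen. Alternatives were median centring, quantile normalization, filters on probe sets, identical probe sets counted once, trend and robust moderation, the unmoderated 1-way comparison, array weights, a replicate block, a score of sex-linked genes (the mean of *Eif2s3y*, *Kdm5d* and *Uty* minus *Xist*) and leaving out each tumor.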

Additional observations from a re-analysis of the deposited data

Results flagged for a closer look

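*Cavin2* in *M-Smo* tumor 3 had a log2 intensity of 6.99, the lowest of its group of 6, with the next value at 7.89. The gap made up 0.865 of the range of the group, above Dixon's 95% critical value for 6 samples. It was the 1 such value among 20 groups of values tested (7 members and 3 cell type lists in each genotype), and chance flags about 1 in 20 groups. That rate need not hold for *Cavin2*, which was chosen for a genotype difference that a low *M-Smo* value raises. *M-Smo* tumor 3 was at 6.91 in *Cavin1*, 9.71 in *Cavin3*, 7.72 in *Cavin4*, 8.21 in *Cav1*, 7.64 in *Cav2* and 5.68 in *Cav3*, within the range of the other *M-Smo* tumors for *Cavin1*, *Cavin3*, *Cavin4* and *Cav1*, and at the lower end for *Cav2* and the upper end for *Cav3*. Without this tumor the difference of *Cavin2* was 0.91 (standard error 0.16).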

How the results depend on the processing

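The difference of *Cavin2* stayed between 0.94 and 1.07 under 10 alternatives and ran from 0.91 to 1.14 when single tumors were left out. Those of *Cavin1*, *Cavin4*, *Cav1* and *Cav3* kept their sign and did not pass in any fit run. *Cav2* ran from -0.16 (with the score of sex-linked genes, adjusted p = 0.304) to -0.04 under the 10 alternatives and from -0.0747 to 0.0081 when single tumors were left out, turning to 0.0081 without *G-Smo* replicate 6 and to 0.0049 without *M-Smo* replicate 6. The number of other members called, 1 (*Cavin3*), became 0 with the score of sex-linked genes and with the replicate block, and was 0 to 1 with each tumor left out. The number of accessory genes called rose from 0 to 1 after quantile normalization (*Flot1*), and it was 0 to 1 with each tumor left out. It rose to 2 (*Flna* and *Flot1*) with the 40th percentile filter, probe sets of 1 symbol, trend and robust moderation, the unmoderated 1-way comparison and array weights. These 5 settings were added for this count after seeing the data. The 1057 calls over all probe sets became 1881 with the 40th percentile filter, 420 with the score of sex-linked genes and 367 to 942 with each tumor left out. The causes were not tested. The correlations gave 0 calls in every setting run, which says nothing of their stability: the smallest p is 0.00278 with 6 tumors (0.117 adjusted over 42) and 0.0167 with 5. *Cav3* has no value under the 40th percentile filter.

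The replicate numbers are shared by the genotypes, but nothing in the labels ties same-numbered tumors, and their deviations correlated at -0.138 to 0.114 over 6 pairs, with 1 of 6 tumors closest to its own number. With the replicate block 113 probe sets were called, and *Cavin3* had an adjusted p = 0.112. The difference of *Cavin2* was 1.07 (standard error 0.18) there. The number of arrays limits the precision: 6 tumors against 6 leave 95% intervals 0.256 to 0.498 wide on the log2 scale for the 5 members that did not pass.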
